A study of Mus musculus with 49 samples.

Results

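Motor protein and tubulin genes are described here in the neocortex of mice that express a cytoplasmic form of human TDP-43. Members were rows of the count table with a symbol of Kif or Klc and a number, or beginning with Dync, Dynll, Dynlt, Dctn, Tuba or Tubb. Kif5a and symbols with -ps were left out, and at least 10 counts were required in 10 or more mice. Of 45252 genes in the table, 79 had such a name and 70 passed the count limit, and these 70 are the members. Among the other 9 were Kif12, Kif16bos, Kif28, Kif2b, Tuba3a, Tuba3b, Tubal3 and Tubb1. Kif2c (10 counts or more in 12 mice) and Kif15 (14 mice) were the members nearest to the limit, and Tubb1 (3 mice) was the gene nearest to it on the other side. The count limit was set over all mice together, so a rarely detected member could pass it through the rNLS8 groups alone. All 70 members also passed the expression filter of the test, which can be passed in the same way.

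Bulk RNA-seq was done on 1 piece of neocortex from each of 49 mice, whose background mixed the strains C57BL/6J and C3H/HeJ. The ctrl-PBS group (n = 17, 10 female and 7 male) held monogenic littermates, which do not express the transgene, and received PBS. The bigenic rNLS8 mice carry NEFH-tTA and tetO-hTDP-43ΔNLS, so that once doxycycline is withdrawn, human TDP-43 lacking the nuclear localization signal is made in neurons in which the neurofilament heavy chain promoter drives tTA. They received PBS (TDP-PBS, n = 10, 4 female and 6 male), TDP-43 peptides 10 and 12 (TDP-10+12, n = 10, 6 female and 4 male) or the phosphorylated C-terminal peptide 15 (TDP-15, n = 12, 5 female and 7 male), with 40 µg of peptide antigen, coupled to ovalbumin and given with CpG and Alhydrogel as adjuvant. Immunization began at 8 weeks, doxycycline was withdrawn in all groups at 25.5 weeks, and tissue was taken 3 weeks later, at 28.5 weeks. The comparisons ask how transgene expression altered these genes and whether immunization changed their levels in rNLS8 mice.

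Microtubules are polymers of alpha and beta tubulin that serve as tracks along axons and dendrites. Most kinesins walk on them toward the plus end, which in axons points away from the cell body, and cytoplasmic dynein with its activator dynactin walks toward the minus end. Cortical neurons depend on both for the delivery of vesicles, mitochondria and signals over long axons, while another set of kinesins builds the spindle of dividing cells.

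Libraries held between 17775738 and 21033608 counts (median 19955601), so 3 counts, the floor used for a gene without reads, correspond to 0.143 to 0.169 CPM. Slc17a7, which marks cortical excitatory neurons, was at 1379 CPM or more in every mouse. Summed excitatory neuron markers (5 genes) had medians of 6827 CPM in ctrl-PBS, 5532 in TDP-PBS, 5166 in TDP-10+12 and 5124 in TDP-15, with 3 of 5 genes called in TDP-PBS, 1 higher and 2 lower. Summed inhibitory neuron markers (6 genes) had medians of 971, 765, 818 and 764 CPM in the same order, with 4, 5 and 5 genes called lower in the rNLS8 groups. Summed microglial markers (6 genes) had medians of 189, 259, 239 and 246 CPM. Of these, 4 were called higher in each rNLS8 group, and 1 was called lower in TDP-10+12 and in TDP-15. Summed astrocyte markers (5 genes) had medians of 651, 868, 812 and 790.0 CPM, with 6, 6 and 5 rNLS8 mice above every ctrl-PBS mouse. Only 1 astrocyte marker was called higher in each rNLS8 group, while 1, 1 and 2 were called lower. The median log2 fold change of the 5 genes was -0.042, -0.081 and -0.11. Gfap had medians of 120.0, 360.3, 299 and 347 CPM. No oligodendrocyte marker was called of 5 in any comparison with ctrl-PBS. In bulk tissue, fewer cells of a type and less RNA per cell cannot be told apart, and the part that cell makeup has in the values below was not tested. Choroid plexus markers (Ttr, Kl, Folr1) summed to over 100 CPM or olfactory bulb markers to over 20 CPM in 3 ctrl-PBS, 3 TDP-PBS, 5 TDP-10+12 and 5 TDP-15 mice, and leading counts are also given without these 16 mice.

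Against ctrl-PBS, 13 members rose and 25 fell in TDP-PBS, 10 rose and 22 fell in TDP-10+12, and 13 rose and 25 fell in TDP-15. The members that rose include Kif18b and Kif20b in each group, which passed the count limit only with the rNLS8 mice. Calls were made at an adjusted p under 0.05, from edgeR's quasi-likelihood fit to 18220 genes and Benjamini-Hochberg adjustment over all of them. The members called made up 54.3% in TDP-PBS, 45.7% in TDP-10+12 and 54.3% in TDP-15, against 43.5%, 40.8% and 46.9% of all genes. In TDP-PBS, 21.9% of all genes rose and 21.6% fell, against 18.6% and 35.7% of the members. All-gene shares were 20.8% higher and 20% lower in TDP-10+12 (members 14.3% and 31.4%), and 23.6% and 23.2% in TDP-15 (members 18.6% and 35.7%). The median log2 fold change of the members was near 0 in each comparison (-0.029, -0.022 and -0.0067), as was that of all genes (-0.00039, 0.0031 and -0.0015). Without the 16 mice with choroid plexus or olfactory bulb markers, 12 members rose and 20 fell in TDP-PBS, 6 and 17 in TDP-10+12, and 9 and 20 in TDP-15, with 7, 9 and 11 calls lost and 1, 0 and 2 gained. Calls over all genes dropped too, from 7928, 7442 and 8539 of 18220 to 6705, 5536 and 7138 of 18580. That fit kept 14 ctrl-PBS, 7 TDP-PBS, 5 TDP-10+12 and 7 TDP-15 mice. Whether calls were lost through the markers or through the smaller groups was not tested.

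In all 3 rNLS8 groups, 19 members were called lower: Dync1i1, Dync1li2, Dync2li1, Dynll2, Dynlt3, Kif13b, Kif2a, Kif3c, Kif5c, Kif6, Klc1, Tuba1a, Tuba1c, Tuba4a, Tubb2a, Tubb3, Tubb4a, Tubb4b and Tubb5. The 8 members called higher in all 3 were Dctn4, Dctn6, Kif18a, Kif18b, Kif19a, Kif20b, Kif4 and Kif5b. Of these, Kif18b and Kif20b passed the count limit only with the rNLS8 mice, so their place in this count gives no support for a direction. In 1 or 2 groups, 9 were called higher (Dynlt1c, Dynlt1f, Kif11, Kif16b, Kif20a, Kif21a, Kif3b, Klc2, Tubb6) and 10 lower (Dctn2, Dctn5, Dync2h1, Dynll1, Dynlt1a, Kif17, Kif23, Kif9, Tuba1b, Tubb2b), and none was called in opposite directions. The remaining 24 were not called in any group. The 3 comparisons share their ctrl-PBS mice, so the counts in all 3 are not independent.

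**Figure D1:**
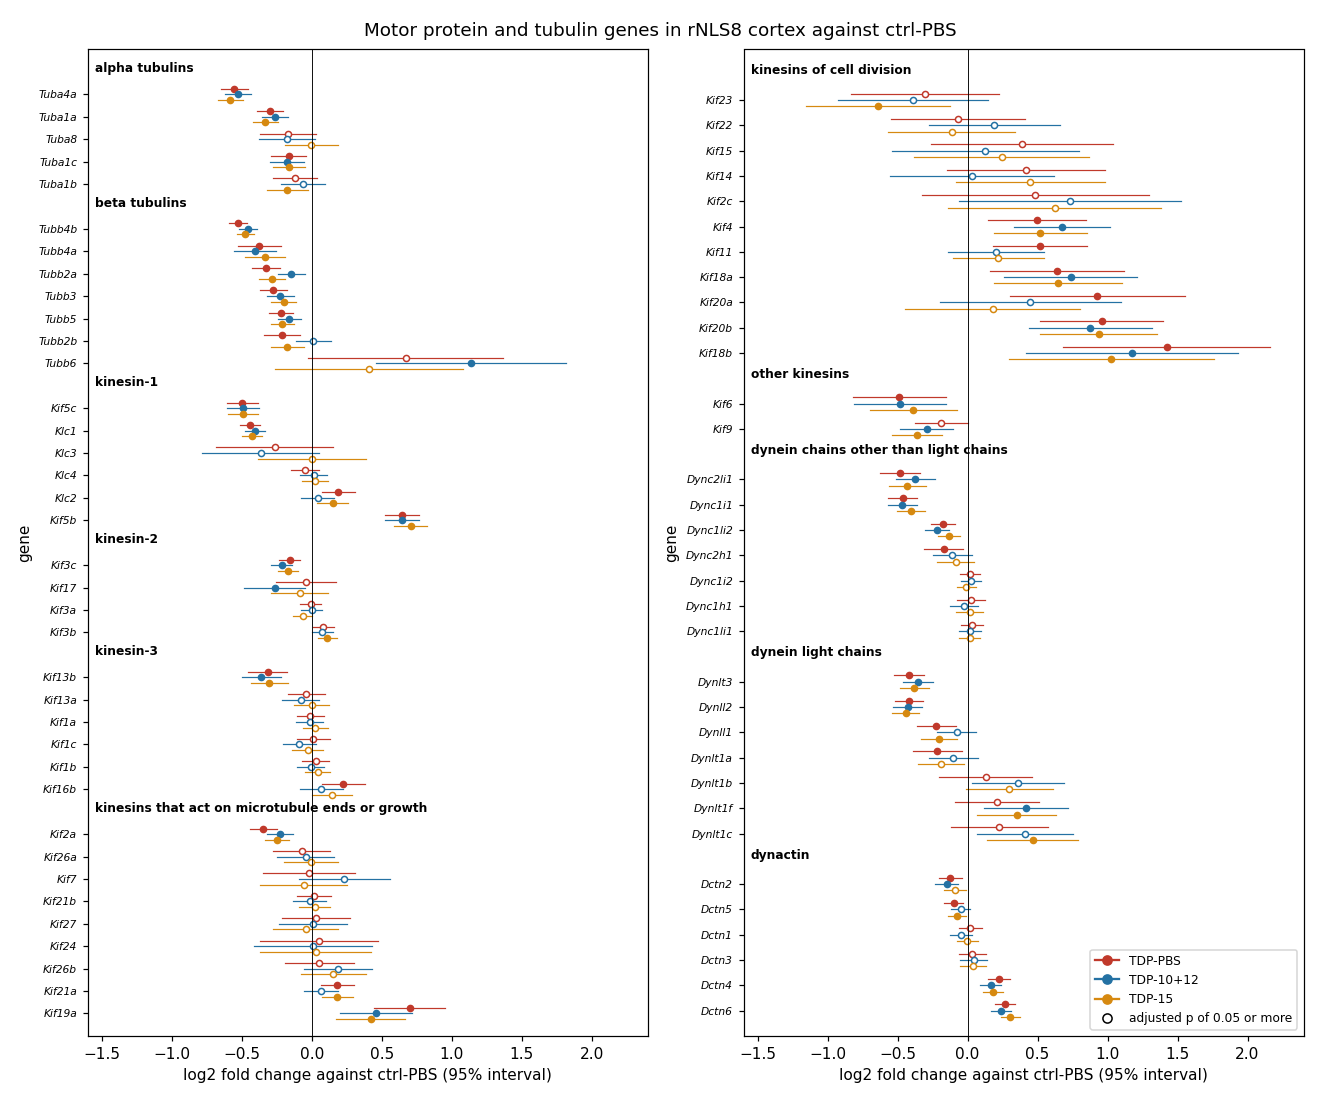
Log2 fold change (x axis) of each of the 70 members (rows, by role) in TDP-PBS, TDP-10+12 and TDP-15 against ctrl-PBS, with 95% intervals, where filled points were called at an adjusted p under 0.05. Beta tubulins other than Tubb6 lie left of 0 in TDP-PBS, Kif5b lies right of 0 and Kif5c left, and cell-division kinesins have the widest intervals.

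Tubulin isotypes differ mainly in their acidic C-terminal tails, where many modifications are placed, and several share long stretches of coding sequence, which matters for how reads are assigned. The last 60 coding bases, read from GENCODE transcripts of GRCm38.p6, are shown for 5 isotypes the results turn on. Positions in brackets are those of the whole gene, not of the bases shown, and all 5 genes lie on the minus strand. Bases run 5′ to 3′ with the stop codon in capitals:
Tuba4a (chr1:75214972-75221261): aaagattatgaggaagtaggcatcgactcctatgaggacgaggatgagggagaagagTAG
Tubb2a (chr13:34074278-34078008): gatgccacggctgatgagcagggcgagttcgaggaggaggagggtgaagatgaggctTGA
Tubb2b (chr13:34127008-34130354): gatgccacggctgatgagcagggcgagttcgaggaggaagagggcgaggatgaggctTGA
Tubb4a (chr17:57080061-57087600): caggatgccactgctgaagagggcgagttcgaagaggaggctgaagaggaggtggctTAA
Tubb4b (chr2:25222158-25224702): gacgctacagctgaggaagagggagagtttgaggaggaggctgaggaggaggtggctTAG
Tubb2a and Tubb2b were identical at 96.5% of aligned coding bases, and Tubb4a and Tubb4b at 83.2%. Of all 100-base words of the transcripts, 65.1% in Tuba1a, 69.5% in Tuba1b and 53.4% in Tuba1c occur in another gene, so counts of these genes are uncertain. The same holds for Tubb2a (36.9%) and Tubb2b (27.7%), and for Tubb4b (29.2%, mostly in its pseudogenes), while no word of Tuba4a or Tubb4a is shared.

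Among the 5 alpha tubulins, 3 fell in TDP-PBS, 3 in TDP-10+12 and 4 in TDP-15, against 21.6%, 20% and 23.2% of all genes. No alpha tubulin rose. Leaving out the 16 mice with choroid plexus or olfactory bulb markers, 2, 2 and 3 fell, as Tuba1c lost its call in TDP-PBS and TDP-10+12 (edgeR adjusted p = 0.0605 and 0.511) and Tuba1b in TDP-15 (edgeR adjusted p = 0.196). Tuba4a, a neuronal isotype in which variants have been linked to amyotrophic lateral sclerosis, had the largest fold changes of the class. Tuba4a had lowest, median and highest levels of 549, 618 and 713 CPM in ctrl-PBS, 364, 416 and 525 in TDP-PBS, 389.8, 419 and 493 in TDP-10+12, and 348, 420.2 and 463 in TDP-15. Every rNLS8 mouse was below every ctrl-PBS mouse, with log2 fold changes of -0.55 ± 0.048, -0.53 ± 0.048 and -0.58 ± 0.045 (SE, edgeR adjusted p = 7.55e-14, 4.28e-13 and 1.32e-15). An opposite-strand gene, Stk16, overlaps 37.3% of the Tuba4a exons, and the strand setting of the counting was not given in the sources used here.

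Tuba1a, the main alpha tubulin of developing neurons, had the highest level per kilobase of exon in the class. In ctrl-PBS, Tuba1a had a median of 1009.7 CPM (911 to 1139), against 822 (718 to 941) in TDP-PBS, 814 (739.8 to 1020.3) in TDP-10+12 and 793 (695 to 886) in TDP-15. Every TDP-15 mouse and 17 of the other 20 rNLS8 mice were below the lowest ctrl-PBS mouse, and the log2 fold changes were -0.30, -0.26 and -0.33. Tuba1c was lower too (-0.17, -0.18 and -0.16, all called), and Tuba1b was called in TDP-15 alone (-0.12, -0.063 and -0.18). Tuba8, the least abundant, had log2 fold changes of -0.17, -0.18 and -0.0043 and was not called.

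Of the 7 beta tubulins, 6 fell in TDP-PBS and none rose, where 21.6% of all genes fell. The median log2 fold change of the class was -0.27 in TDP-PBS, -0.16 in TDP-10+12 and -0.21 in TDP-15. Tubb4b, a broadly expressed isotype, gave the smallest adjusted p of all members. Mice of the ctrl-PBS group had 174 to 200.5 CPM of Tubb4b (median 186), those of TDP-PBS 119.7 to 145 (median 129.6), those of TDP-10+12 124 to 147 (median 138) and those of TDP-15 126 to 153 (median 133). No rNLS8 mouse reached the ctrl-PBS range, and Tubb4b had log2 fold changes of -0.53 ± 0.032, -0.46 ± 0.032 and -0.48 ± 0.030 (SE, edgeR adjusted p = 5.49e-19, 9.89e-17 and 1.45e-18). Its spread within groups was small, with a mean of 187 ± 7.72 CPM (SD, n = 17) in ctrl-PBS and 129.5 ± 7.34 (SD, n = 10) in TDP-PBS.

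Tubb4a, an isotype of neurons and myelinating oligodendrocytes, had the highest level per kilobase of all members. Tubb4a ranged from 1417 to 2425 CPM in ctrl-PBS (median 1854), from 1249 to 1934 in TDP-PBS (median 1385), from 1262 to 1832 in TDP-10+12 (median 1363) and from 1200.5 to 1858 in TDP-15 (median 1491). The groups overlapped widely, with 16 of 32 rNLS8 mice below the lowest ctrl-PBS mouse, and Tubb4a had log2 fold changes of -0.37 ± 0.075, -0.40 ± 0.075 and -0.33 ± 0.071 (SE, edgeR adjusted p = 5.09e-05, 1.66e-05 and 1.08e-04). Summed oligodendrocyte markers overlapped between groups, with medians of 4413, 4133, 3818 and 4553 CPM in ctrl-PBS, TDP-PBS, TDP-10+12 and TDP-15. Tubb3, the isotype used as a neuronal marker, fell by 0.27 on the log2 scale in TDP-PBS, and Tubb5 by 0.22. The call of Tubb5 in TDP-10+12 was lost without the 16 mice (edgeR adjusted p = 0.169).

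Tubb2a and Tubb2b, a neighbouring pair on chromosome 13 that share much of their coding sequence, were mostly lower. Tubb2a had lowest, median and highest levels of 339.8, 427 and 476 CPM in ctrl-PBS, 276, 329.8 and 422 in TDP-PBS, 336, 393 and 426 in TDP-10+12, and 319, 348 and 399 in TDP-15. In ctrl-PBS, Tubb2b had a median of 217 CPM (168 to 252), against 179 (159 to 257) in TDP-PBS, 208 (190.4 to 292) in TDP-10+12 and 197 (172 to 228) in TDP-15. Most values of the rNLS8 groups lay inside the ctrl-PBS ranges. Tubb2a was lower in all 3 groups (-0.33, -0.15 and -0.28, edgeR adjusted p = 3.07e-07, 0.0155 and 1.48e-06), and Tubb2b was lower in TDP-PBS and TDP-15 but not called in TDP-10+12 (-0.21, 0.010 and -0.17, edgeR adjusted p = 0.00459, 0.913 and 0.0132). Without the 16 mice with choroid plexus or olfactory bulb markers, the call of Tubb2a in TDP-10+12 was lost (log2 fold change -0.078, edgeR adjusted p = 0.403), as was that of Tubb2b in TDP-15 (-0.18, edgeR adjusted p = 0.0649).

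Tubb6, a low-abundance isotype of mainly non-neuronal tissues, was called higher in TDP-10+12 alone. Mice of the ctrl-PBS group had 0.408 to 3.35 CPM of Tubb6 (median 0.921), those of TDP-PBS 0.941 to 3.34 (median 1.43), those of TDP-10+12 0.559 to 9.55 (median 1.34) and those of TDP-15 0.249 to 2.54 (median 1.42). The highest TDP-10+12 value belonged to mouse 301, and the other 9 mice of that group lay between 0.559 and 3.34 CPM, within the ctrl-PBS range. The log2 fold change in TDP-10+12 was 1.14 ± 0.34 (SE, edgeR adjusted p = 0.00509) with that mouse and 0.55 without it (edgeR adjusted p = 0.155). Mouse 301 also had the highest Gfap level of its group (1133 CPM, against 181 to 384 in the other 9). Leaving it out also ended the calls of Dync2h1 (edgeR adjusted p = 0.0597) and Dynlt1a (0.0523) in TDP-PBS, of Kif18a (0.0790) in TDP-10+12, and of Tuba1b (0.0624) and Dctn5 (0.0842) in TDP-15, and it added calls of Kif3b in TDP-PBS and Dynlt1c in TDP-10+12 (both higher).

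Within each class, shares of the summed CPM per kilobase of exon show how the isotype makeup differed, as a description without a test. The summed alpha tubulins had a mean of 1439 ± 82.2 CPM per kilobase (SD, n = 17) in ctrl-PBS and 1215 ± 91.9 (SD, n = 10) in TDP-PBS, and the beta tubulins 1810 ± 139.6 and 1445 ± 113. Tuba4a took 11.6% ± 0.876 of the alpha tubulins in ctrl-PBS and 9.35% ± 0.610 in TDP-PBS, and Tuba1b 29.4% ± 2.95 in ctrl-PBS and 32.5% ± 2.31 in TDP-10+12. Tubb4b made up 4.96% ± 0.325 of the beta tubulins in ctrl-PBS and 4.31% ± 0.262 in TDP-PBS. Tubb4a, the largest part, had shares of 46.3% ± 3.57 in ctrl-PBS, 44.8% ± 3.92 in TDP-PBS, 42.4% ± 2.53 in TDP-10+12 and 44.8% ± 3.46 in TDP-15, and the difference from ctrl-PBS was over 1 SD in TDP-10+12 alone. Tubulin shares thus moved by at most a few percentage points. The share of Kif5b moved more, in a sum of Kif5b and Kif5c alone, as Kif5a was left out. Shares in a sum of so few genes are not directly comparable with those in the larger classes.

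**Figure D2:**
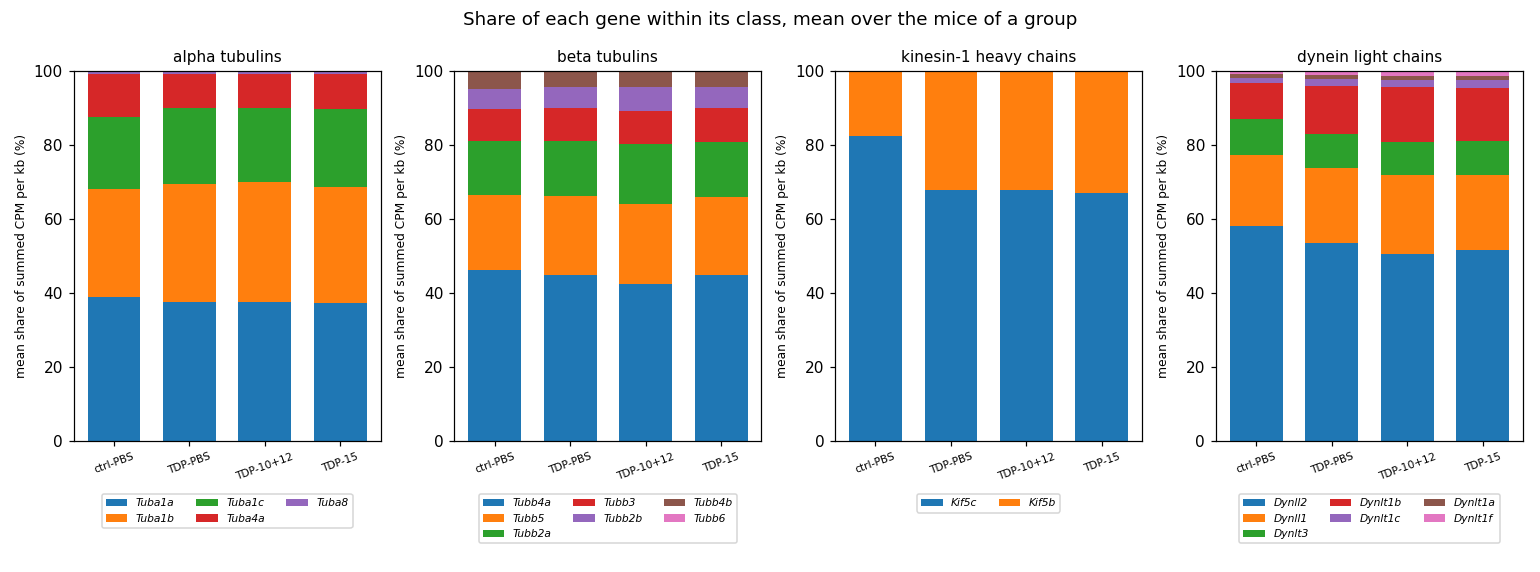
Mean share (%) of each gene in the summed CPM per kilobase of its class for ctrl-PBS, TDP-PBS, TDP-10+12 and TDP-15, with 1 stacked bar per group and 1 panel per class. The kinesin-1 panel sums Kif5b and Kif5c alone, as Kif5a was left out. In it the share of Kif5b rises from 17.7% in ctrl-PBS to 32.2%, 32.2% and 33.1% in the rNLS8 groups. The bars of the tubulins, which are larger classes, differ much less.

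Kinesin-1 is the main motor of fast anterograde transport and joins heavy chains (Kif5 genes) with light chains (Klc genes) that bind cargo. The ubiquitous heavy chain Kif5b rose in every rNLS8 group, while the neuron-enriched heavy chain Kif5c, added here after its values were seen because it pairs with Kif5b, fell. Kif5b ranged from 105 to 158 CPM in ctrl-PBS (median 127), from 167 to 227 in TDP-PBS (median 195), from 158 to 249 in TDP-10+12 (median 201) and from 183 to 247 in TDP-15 (median 199). All but 1 of 32 rNLS8 mice were above the highest ctrl-PBS mouse, the exception being in TDP-10+12, and Kif5b had log2 fold changes of 0.64 ± 0.061, 0.65 ± 0.061 and 0.71 ± 0.058 (SE, edgeR adjusted p = 1.22e-12, 1.14e-12 and 8.05e-15).

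Kif5c had lowest, median and highest levels of 454, 524 and 653 CPM in ctrl-PBS, 326, 365 and 425 in TDP-PBS, 313, 373 and 414 in TDP-10+12, and 301, 371 and 438 in TDP-15. No rNLS8 mouse reached the lowest ctrl-PBS mouse, and Kif5c had log2 fold changes of -0.50 ± 0.056, -0.49 ± 0.056 and -0.49 ± 0.053 (SE, edgeR adjusted p = 2.40e-10, 3.41e-10 and 5.17e-11). Of the summed CPM per kilobase of both genes, Kif5b held 17.7% ± 0.899 (SD, n = 17) in ctrl-PBS, with a highest mouse at 19.5%, and 32.2% ± 1.57 (SD, n = 10) in TDP-PBS, with a lowest mouse at 29.7%. The shares of the other rNLS8 groups were 32.2% ± 2.42 and 33.1% ± 2.18, with no overlap with ctrl-PBS. Their sum went from 89.1 ± 8.91 CPM per kilobase in ctrl-PBS to 76.7 ± 7.10 in TDP-PBS. Kif5c was the more abundant of both in every group.

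Among the light chains, Klc1, which is enriched in neurons, fell in all 3 groups, and Klc2 was the most abundant per kilobase. In ctrl-PBS, Klc1 had a median of 383 CPM (369 to 425), against 280.4 (255 to 331) in TDP-PBS, 295 (277 to 312) in TDP-10+12 and 288 (261 to 321) in TDP-15. All 32 rNLS8 mice were below the ctrl-PBS range for Klc1, with log2 fold changes of -0.44 ± 0.037, -0.40 ± 0.037 and -0.43 ± 0.034 (SE, edgeR adjusted p = 1.84e-14, 3.52e-13 and 5.20e-15). Mice of the ctrl-PBS group had 379 to 569 CPM of Klc2 (median 459), those of TDP-PBS 426 to 651 (median 534), those of TDP-10+12 419.9 to 532 (median 480.4) and those of TDP-15 430.1 to 592 (median 505). The groups overlapped for Klc2, which was called higher in TDP-PBS and TDP-15 but not in TDP-10+12 (0.19, 0.041 and 0.15). The call in TDP-15 was lost without the 16 mice with choroid plexus or olfactory bulb markers (edgeR adjusted p = 0.211). Klc3 (-0.26, -0.36 and 0.0011) and Klc4 (-0.048, 0.013 and 0.021) were not called.

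**Figure D3:**
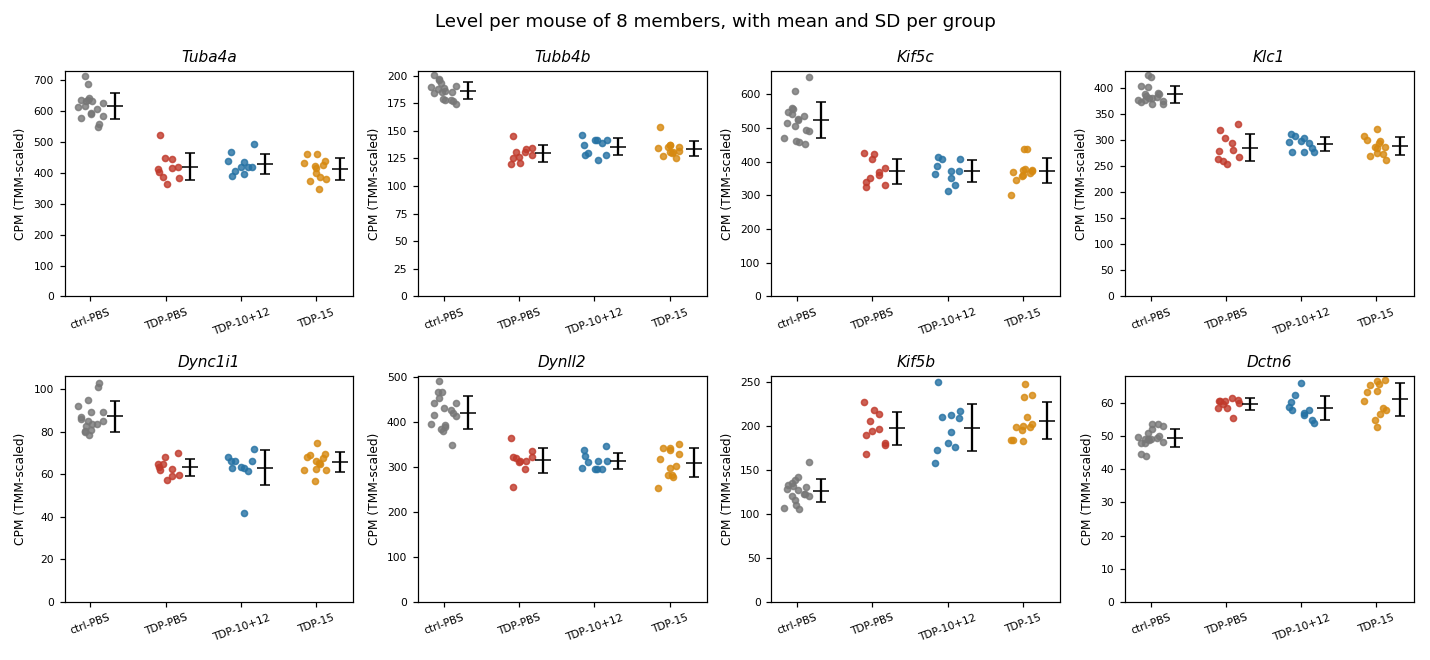
Level (CPM, TMM-scaled, y axis from 0) of 8 members in each of the 49 mice, by group, where points are mice and bars the mean with SD. Tuba4a, Tubb4b, Kif5c, Klc1 and Dync1i1 show every rNLS8 mouse below ctrl-PBS, and Kif5b and Dctn6 show 31 of 32 above it.

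Kinesin-2 motors move organelles and the cargo of cilia. Kif3c fell in all 3 groups (-0.16, -0.22 and -0.17), though its exons overlap opposite-strand genes over 40.7% of their length. Its call in TDP-PBS was lost without the 16 mice named above (log2 fold change -0.10, edgeR adjusted p = 0.0503). Kif3a, the most abundant per kilobase and the usual partner of Kif3b, had levels of 134 to 168 CPM in ctrl-PBS and 138 to 156 in TDP-PBS, and log2 fold changes of -0.0073, -0.00032 and -0.065. Kif3b was called higher in TDP-15 (0.083, 0.076 and 0.11) and Kif17, which carries NMDA receptor subunits in dendrites, lower in TDP-10+12 (-0.043, -0.27 and -0.086).

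Kinesin-3 motors carry synaptic vesicle precursors and dense core vesicles, and most of them were not called. Of 6, the calls numbered 2 in TDP-PBS, 1 in TDP-10+12 and 1 in TDP-15, where 43.5%, 40.8% and 46.9% of all genes were called. Kif1a ranged from 1479 to 1837 CPM in ctrl-PBS (median 1620.3), from 1142 to 1883 in TDP-PBS (median 1635), from 1438 to 1802 in TDP-10+12 (median 1569.5) and from 1511 to 1853 in TDP-15 (median 1646). The ranges of Kif1a, the principal carrier of synaptic vesicle precursors, overlapped throughout, and its log2 fold changes were -0.011, -0.016 and 0.026. Kif1b (0.027, -0.0071 and 0.042), Kif1c (0.011, -0.089 and -0.028) and Kif13a (-0.038, -0.080 and -0.00039) were likewise not called. Kif13b was lower in all 3 groups (-0.31, -0.36 and -0.30), and Kif16b, an endosome motor, was higher in TDP-PBS (0.22, SE 0.076, edgeR adjusted p = 0.0132).

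Kinesins grouped here under microtubule ends or growth numbered 9, of which 2 rose and 1 fell in TDP-PBS. Of all genes, 21.9% rose and 21.6% fell in that comparison. Kif2a, a depolymerase that trims growing axon branches, was the one that fell. Kif2a had lowest, median and highest levels of 45.3, 53.0 and 67.0 CPM in ctrl-PBS, 37.4, 42.3 and 46.5 in TDP-PBS, 41.5, 45.5 and 49.7 in TDP-10+12, and 39.9, 45.0 and 52.2 in TDP-15. The ranges overlapped, with 19 of 32 rNLS8 mice below the lowest ctrl-PBS mouse, and Kif2a had log2 fold changes of -0.35 ± 0.047, -0.23 ± 0.047 and -0.25 ± 0.044 (SE, edgeR adjusted p = 2.55e-08, 7.36e-05 and 5.83e-06). Kif21a, which slows microtubule growth, was called higher in TDP-PBS and TDP-15 (0.18, 0.064 and 0.18), and Kif21b was not called (0.017, -0.016 and 0.021).

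Kif19a, a depolymerase that sets the length of motile cilia, rose from a low level. In ctrl-PBS, Kif19a had a median of 2.35 CPM (1.73 to 3.02), against 3.54 (2.56 to 4.90) in TDP-PBS, 2.92 (1.83 to 4.54) in TDP-10+12 and 3.08 (2.11 to 4.19) in TDP-15. Of 32 rNLS8 mice, 18 were above the highest ctrl-PBS mouse, and Kif19a had log2 fold changes of 0.70 ± 0.13, 0.46 ± 0.13 and 0.42 ± 0.12 (SE, edgeR adjusted p = 8.78e-06, 0.00292 and 0.00366). No ependymal marker was called of 4, with summed medians of 11.6 CPM in ctrl-PBS and 12.9 in TDP-PBS. Without the 16 mice with choroid plexus or olfactory bulb markers, its call in TDP-10+12 was lost (log2 fold change 0.32, edgeR adjusted p = 0.149). Kif7, Kif24, Kif26a, Kif26b and Kif27 were not called in any group.

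Kinesins of cell division build and move the mitotic spindle, and in adult cortex they were near the limit of detection. Of 11, 6 rose in TDP-PBS, 4 in TDP-10+12 and 4 in TDP-15, 1 fell in TDP-15 and none fell in the other groups. Of all genes, 21.9%, 20.8% and 23.6% rose in these groups. Kif18b reached 10 counts in 2 of 17 ctrl-PBS mice and 18 mice in all, Kif15 in 2 and 14, and Kif2c in 1 and 12. Kif14 reached 10 counts in 6 ctrl-PBS mice, and Kif20b and Kif22 in 9 each. None of these genes would have passed the count limit on the ctrl-PBS mice alone. The counts over the class therefore give no support for a direction. Kif18b, which acts on the plus ends of spindle microtubules, had the largest fold change among members, from counts at the limit of detection. Mice of the ctrl-PBS group had 0 to 0.840 CPM of Kif18b (median 0.108), those of TDP-PBS 0.105 to 0.941 (median 0.515), those of TDP-10+12 0.149 to 1.14 (median 0.447) and those of TDP-15 0.160 to 0.863 (median 0.385). The groups overlapped, with 6 of 32 rNLS8 mice above the highest ctrl-PBS mouse, and Kif18b had log2 fold changes of 1.42 ± 0.37, 1.17 ± 0.38 and 1.03 ± 0.36 (SE, edgeR adjusted p = 0.00135, 0.00980 and 0.0174). Without the 16 mice with choroid plexus or olfactory bulb markers its calls in TDP-10+12 (1.09, edgeR adjusted p = 0.112) and TDP-15 (1.12, edgeR adjusted p = 0.0536) were lost. Many of its values lie at or under 3 counts, so the size of the change is poorly determined.

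Kif20b, a motor of the final step of cell separation, was called in all 3 groups. It reached 10 counts in 9 of 17 ctrl-PBS mice, so it passed the count limit only with the rNLS8 mice. Kif20b ranged from 0.215 to 0.728 CPM in ctrl-PBS (median 0.494), from 0.470 to 1.98 in TDP-PBS (median 0.801), from 0.249 to 1.39 in TDP-10+12 (median 0.949) and from 0.597 to 1.39 in TDP-15 (median 0.973). Of 32 rNLS8 mice, 23 were above the highest ctrl-PBS mouse, and Kif20b had log2 fold changes of 0.96 ± 0.22, 0.88 ± 0.22 and 0.94 ± 0.21 (SE, edgeR adjusted p = 2.96e-04, 9.95e-04 and 1.90e-04). Kif18a (0.64, 0.74 and 0.64) and Kif4 (0.49, 0.67 and 0.52) were called in all 3 groups. Leaving out the 16 mice, Kif4 was not called in any group (edgeR adjusted p = 0.104, 0.0662 and 0.0795), and the call of Kif18a in TDP-10+12 was lost without mouse 301 (edgeR adjusted p = 0.0790). Kif11, the spindle motor with the highest level per kilobase of the group, was called in TDP-PBS (0.52, SE 0.17, edgeR adjusted p = 0.0102), as was Kif20a (0.93, SE 0.31, edgeR adjusted p = 0.0132), an opposite-strand gene overlapping 29.3% of its exons. Kif23, a component of the central spindle, was lower in TDP-15 (-0.64, SE 0.26, edgeR adjusted p = 0.0354), and Kif14, Kif15, Kif22 and Kif2c were not called. Kif11 was no longer called in TDP-PBS without the 16 mice (0.44, edgeR adjusted p = 0.0755) nor Kif23 in TDP-15 (edgeR adjusted p = 0.0734), while Kif14 was then called higher in TDP-15 (0.89, edgeR adjusted p = 0.0351).

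Of 6 markers of dividing cells, 2 passed the filter of the test, Mki67 and Top2a. Mki67 ranged from 0.306 to 1.69 CPM in ctrl-PBS and had medians of 2.43 in TDP-PBS, 2.43 in TDP-10+12 and 2.09 in TDP-15, and the medians of Top2a were 0.771 CPM in ctrl-PBS and 1.61, 1.32 and 1.33 in the rNLS8 groups. Both were called higher in all 3 groups, and Cdk1, Ccnb1, Aurkb and Bub1 were under the filter. The summed level of all 6 was above every ctrl-PBS mouse (highest 3.95 CPM) in 8 of 10 TDP-PBS, 7 of 10 TDP-10+12 and 9 of 12 TDP-15 mice. Of the 6 microglial markers, 4 were called higher in TDP-PBS, and the part of either in the kinesin values was not tested. Without the 16 mice with choroid plexus or olfactory bulb markers, 4, 2 and 3 of the 11 kinesins were called higher and none lower, and without mouse 301 the counts were 6, 3 and 4, with 1 lower in TDP-15.

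**Figure D4:**
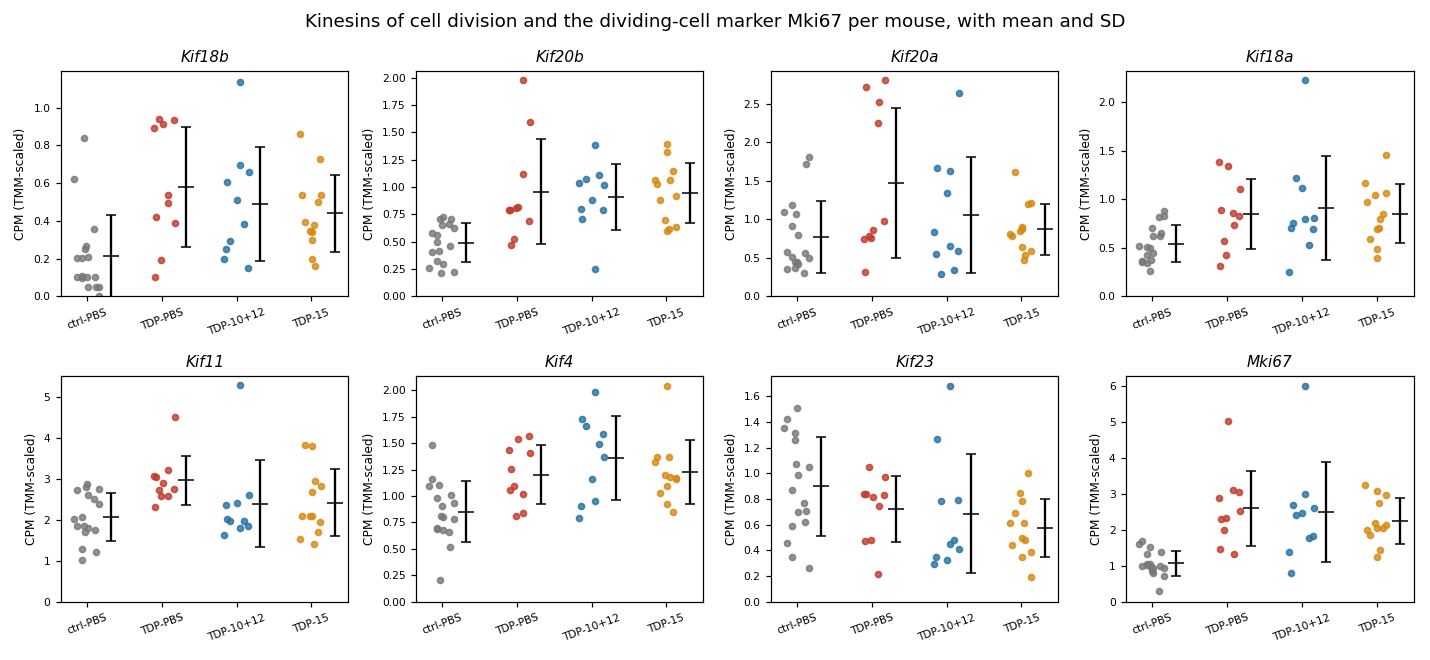
Level (CPM, TMM-scaled) of 7 kinesins of cell division and of the dividing-cell marker Mki67 in each mouse, by group, with the mean and SD. Kif20b lies above the ctrl-PBS range in 23 of 32 rNLS8 mice, and 1 TDP-10+12 mouse is highest in Kif11 (5.29 CPM) and Mki67 (5.99 CPM).

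Promoters of many cell-cycle genes hold a CHR element, TTTGAA. RefSeq promoters (GRCm38.p6, from 250 bases before to 50 after the start) were searched for these letters on both strands, where the other strand reads TTCAAA. They occurred in 9 of the 10 cell-division kinesins with a promoter in the table (90.0%), in 14 of 55 members with one (25.5%) and in 17.9% of all promoters, or 20.2% of genes with one. Kif18a had no match. Windows of 30 bases around the first match are shown for the called genes, 5′ to 3′ on the gene's strand, with the match in capitals and its position counted from 0 at the first transcribed base:
Kif18b (chr11:102925104-102925133, minus strand, motif at position 3): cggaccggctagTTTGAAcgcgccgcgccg
Kif20b (chr19:34922353-34922382, plus strand, motif at position 7): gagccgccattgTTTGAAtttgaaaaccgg
Kif4 (chrX:100626072-100626101, plus strand, motif at position 19): ctctgggatcaaTTTGAAacttggcggtta
Kif11 (chr19:37376351-37376380, plus strand, motif at position -19): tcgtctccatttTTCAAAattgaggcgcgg
Kif23 (chr9:61946780-61946809, minus strand, motif at position 2): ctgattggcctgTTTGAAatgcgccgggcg
Such a match is a description of the sequence. Kif22, Kif14, Kif15 and Kif2c also had a match and were not called, and Kif23 had one and was lower in TDP-15.

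The remaining kinesins are axonemal motors known from motile cilia. Kif6 fell in all 3 groups (-0.49, -0.48 and -0.39, edgeR adjusted p = 0.0133, 0.0145 and 0.0335), from a median of 1.94 CPM in ctrl-PBS to 1.32, 1.43 and 1.62. Kif9 fell in TDP-10+12 and TDP-15 (-0.19, -0.29 and -0.36). Neither set of ranges separated, and without the 16 mice named above Kif6 was not called in any group (edgeR adjusted p = 0.194, 0.119 and 0.239), nor Kif9 in TDP-10+12 (edgeR adjusted p = 0.162).

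Cytoplasmic dynein joins a heavy chain with intermediate, light intermediate and light chains. The heavy chain Dync1h1 was not called (0.026, -0.027 and 0.014), and neither were Dync1i2 (0.017, 0.026 and -0.009) and Dync1li1 (0.031, 0.016 and 0.013). Dync1i1, the neuron-enriched intermediate chain that binds dynactin, fell. Dync1i1 had lowest, median and highest levels of 78.7, 85.1 and 103 CPM in ctrl-PBS, 57.4, 63.1 and 70.2 in TDP-PBS, 41.7, 64.8 and 72.2 in TDP-10+12, and 56.9, 65.8 and 74.6 in TDP-15. All 32 rNLS8 mice lay below the ctrl-PBS range, with log2 fold changes of -0.46 ± 0.053, -0.47 ± 0.053 and -0.41 ± 0.050 (SE, edgeR adjusted p = 2.43e-10, 2.64e-10 and 1.24e-09). The lowest value was again that of TDP-10+12 mouse 301, and the log2 fold change in that group was -0.40 without it.

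Dync1li2, the other light intermediate chain, was lower in all 3 groups (-0.18, -0.22 and -0.14), but not in TDP-15 once the 16 mice were left out (edgeR adjusted p = 0.0687). Of the dynein of cilia, the light intermediate chain Dync2li1 fell from a low level. In ctrl-PBS, Dync2li1 had a median of 8.30 CPM (6.92 to 10.4), against 5.73 (4.96 to 7.86) in TDP-PBS, 6.79 (5.15 to 7.39) in TDP-10+12 and 6.23 (5.41 to 7.69) in TDP-15. Of 32 rNLS8 mice, 27 were below the lowest ctrl-PBS mouse, and Dync2li1 had log2 fold changes of -0.48 ± 0.071, -0.37 ± 0.070 and -0.43 ± 0.066 (SE, edgeR adjusted p = 1.24e-07, 1.87e-05 and 3.09e-07). Its heavy chain Dync2h1 was called in TDP-PBS alone (-0.17, -0.11 and -0.086), and this call was lost without the 16 mice (edgeR adjusted p = 0.191).

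Dynein light chains bind cargo and many other proteins. Dynll2, the most abundant of them per kilobase, fell in every group. Mice of the ctrl-PBS group had 348 to 491 CPM of Dynll2 (median 419), those of TDP-PBS 254 to 364 (median 317), those of TDP-10+12 294 to 346 (median 312) and those of TDP-15 253 to 350.3 (median 310.2). All but 2 rNLS8 mice were below the lowest ctrl-PBS mouse, and Dynll2 had log2 fold changes of -0.42 ± 0.051, -0.43 ± 0.051 and -0.44 ± 0.048 (SE, edgeR adjusted p = 1.59e-09, 9.62e-10 and 5.08e-11). Its share of the summed light chains was 57.9% ± 2.99 (SD, n = 17) in ctrl-PBS and 53.4% ± 4.10 (SD, n = 10) in TDP-PBS, 50.4% ± 2.50 (SD, n = 10) in TDP-10+12 and 51.5% ± 3.75 (SD, n = 12) in TDP-15. Dynll1 was lower in TDP-PBS and TDP-15 but not called in TDP-10+12 (-0.22, -0.080 and -0.20).

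Dynlt3 ranged from 59.2 to 80.3 CPM in ctrl-PBS (median 66.2), from 41.0 to 59.8 in TDP-PBS (median 49.5), from 46.6 to 60.7 in TDP-10+12 (median 50.7) and from 44.5 to 58.6 in TDP-15 (median 51.6). Every TDP-15 mouse and 17 of the other 20 rNLS8 mice were below the lowest ctrl-PBS value of Dynlt3, a light chain of the Tctex family, with log2 fold changes of -0.42 ± 0.054, -0.35 ± 0.054 and -0.38 ± 0.051 (SE, edgeR adjusted p = 8.41e-09, 4.12e-07 and 1.50e-08). The 4 copies Dynlt1a, Dynlt1b, Dynlt1c and Dynlt1f lie together on chromosome 17 and share 42.5% to 86.5% of their 100-base words with other genes, so their counts are uncertain. Dynlt1a was lower in TDP-PBS (-0.22, -0.10 and -0.19), Dynlt1c was higher in TDP-15 (0.23, 0.41 and 0.46), Dynlt1f was higher in TDP-10+12 and TDP-15 (0.21, 0.42 and 0.35), and Dynlt1b was not called (0.13, 0.36 and 0.30). None of the calls of Dynlt1c and Dynlt1f held without the 16 mice (edgeR adjusted p = 0.129 for Dynlt1c in TDP-15, and 0.242 and 0.139 for Dynlt1f in TDP-10+12 and TDP-15), whereas Dynlt1a was then called lower in TDP-15 as well.

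Dynactin links dynein to cargo and makes it processive. Its microtubule-binding subunit Dctn1, mutated in a motor neuron disease, was not called, with ctrl-PBS mice at 402 to 475 CPM, TDP-PBS mice at 369 to 495, and fold changes near 0 (0.020, -0.046 and -0.0018 on the log2 scale). Both subunits that rose, Dctn6 and Dctn4, belong to the complex that caps the pointed end of the dynactin filament. Dctn6 had lowest, median and highest levels of 44.2, 49.3 and 53.7 CPM in ctrl-PBS, 55.4, 60.3 and 61.7 in TDP-PBS, 54.0, 57.9 and 66.1 in TDP-10+12, and 52.7, 62.0 and 67.1 in TDP-15. All but 1 of 32 rNLS8 mice were above the highest ctrl-PBS mouse, the exception being in TDP-15, and Dctn6 had log2 fold changes of 0.27 ± 0.036, 0.24 ± 0.036 and 0.30 ± 0.034 (SE, edgeR adjusted p = 1.88e-08, 2.47e-07 and 1.39e-10).

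In ctrl-PBS, Dctn4 had a median of 65.2 CPM (57.4 to 72.1), against 75.7 (67.7 to 86.4) in TDP-PBS, 72.9 (67.2 to 81.6) in TDP-10+12 and 72.5 (63.5 to 82.4) in TDP-15. Although 21 of 32 rNLS8 mice exceeded every ctrl-PBS mouse in Dctn4, the ranges overlapped, and the log2 fold changes were 0.23, 0.16 and 0.18. Dctn5, another member of that pointed-end complex, was called lower in TDP-PBS and TDP-15 (-0.098, -0.051 and -0.076), and the call in TDP-15 was lost without the 16 mice (edgeR adjusted p = 0.532) and without mouse 301 (edgeR adjusted p = 0.0842). Dctn2 was lower in TDP-PBS and TDP-10+12 (-0.12, -0.15 and -0.091), though not in TDP-PBS without the 16 mice (edgeR adjusted p = 0.0533), and Dctn3 was not called (0.034, 0.044 and 0.036).

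Counted over all members, 5 (7.14%) had every one of the 32 rNLS8 mice below every ctrl-PBS mouse, namely Tuba4a, Tubb4b, Kif5c, Klc1 and Dync1i1, against 1.64% of all genes tested. None had every rNLS8 mouse above the ctrl-PBS range (1.16% of all genes), with Kif5b and Dctn6 short of it by 1 mouse each. Within single groups, members with every mouse below ctrl-PBS numbered 5 in TDP-PBS (2.58% of all genes), 6 in TDP-10+12 (2.59%, with Dynll2) and 7 in TDP-15 (3.08%, with Tuba1a and Dynlt3). Those with every mouse above it numbered 2 in TDP-PBS (2.31% of all genes), 1 in TDP-10+12 (2.23%) and 1 in TDP-15 (2.45%). The 5 genes below in all groups are a tubulin of each class, a kinesin-1 heavy and light chain and a dynein intermediate chain. Summed excitatory neuron markers were below the ctrl-PBS range in 3 of 10, 9 of 10 and 8 of 12 mice of TDP-PBS, TDP-10+12 and TDP-15.

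No member was called between any pair of rNLS8 groups by the quasi-likelihood test of edgeR (0 of 70 in each of the 3 comparisons, percent called among all genes 0). At an unadjusted p under 0.05 there were 4 members for TDP-10+12 against TDP-PBS, 2 for TDP-15 against TDP-PBS and 3 for TDP-10+12 against TDP-15, with 953, 552 and 1244 of 18220 genes in all. DESeq2 and limma-voom called no member either, and of all genes limma-voom called 2 in TDP-10+12 against TDP-PBS and DESeq2 0 in each comparison. For the 48 members with a mean of 10 CPM or more, the log2 differences lay between -0.22 and 0.23, -0.082 and 0.24, and -0.18 and 0.19, with a median half-width of the 95% interval of 0.11 in each comparison. For the 22 members under 10 CPM the half-widths had a median of 0.47, 0.45 and 0.45.

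In both comparisons of TDP-10+12, the smallest p values were those of Tubb2a and Tubb2b, with the medians of TDP-10+12 above those of the other rNLS8 groups. The log2 difference of TDP-10+12 against TDP-PBS was 0.18 ± 0.055 (SE, edgeR adjusted p = 0.71) for Tubb2a and 0.22 ± 0.070 (SE, edgeR adjusted p = 0.755) for Tubb2b. Against TDP-15 it was 0.14 ± 0.053 (SE, edgeR adjusted p = 0.575) and 0.19 ± 0.067 (SE, edgeR adjusted p = 0.559). For TDP-15 against TDP-PBS, Kif20a (-0.75, SE 0.34, edgeR adjusted p = 1.0) and Kif19a (-0.28, SE 0.14, edgeR adjusted p = 1.0) had the smallest p values. The values of Kif5b and Kif5c overlapped across the immunized and PBS groups, with means of 197 ± 18.8, 198 ± 26.9 and 206 ± 21.4 CPM (SD, n = 10, 10 and 12) for Kif5b.

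**Figure D5:**
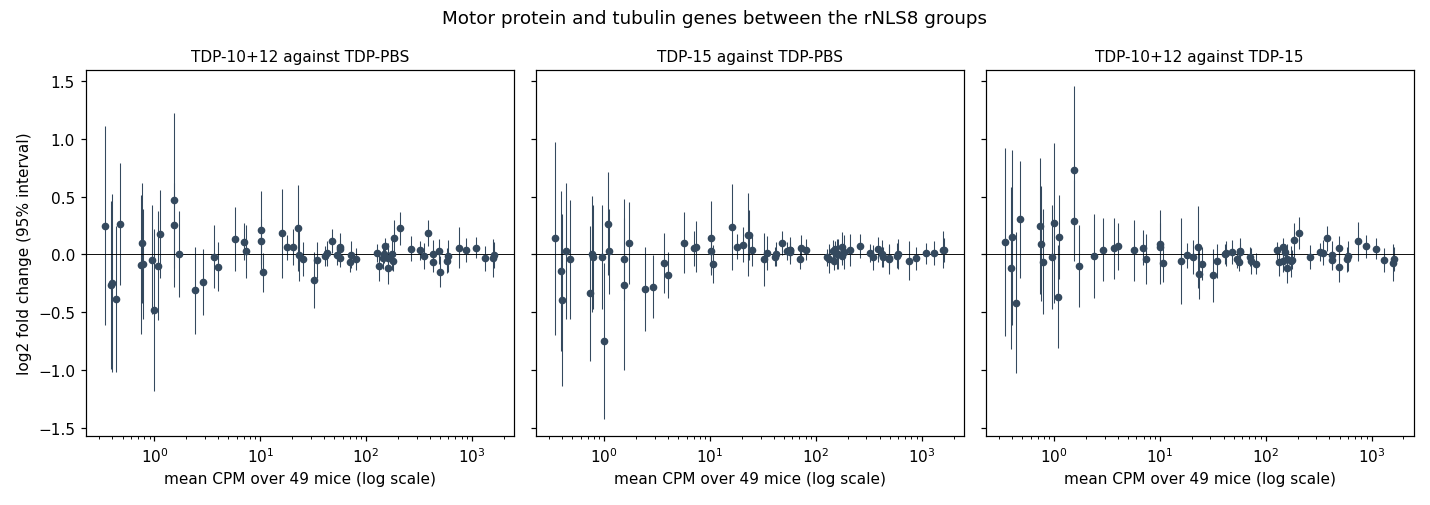
Log2 fold change with 95% interval (y axis) of each of the 70 members against its mean CPM over 49 mice (x axis, log scale) for the 3 comparisons between rNLS8 groups. Abundant members lie close to 0 and none was called, and the intervals widen under 10 CPM.

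Whether the genotype effect differed by sex was tested in the 27 PBS mice. No member of 67 tested was called by the quasi-likelihood test of edgeR, nor was any of 17363 genes, also with DESeq2 size factors or without the filter, while 10 members had an unadjusted p under 0.05, against 6.32% of all genes. These 10 were Tuba1b, Tubb2a, Tubb2b, Tubb5, Dync1li2, Dynll1, Dynlt1a, Kif5c, Kif13a and Kif1b. The log2 fold change of Tubb2a was -0.48 in females and -0.18 in males, and that of Tubb2b was -0.39 in females and -0.046 in males (edgeR adjusted p of the difference = 0.741 for both). A p that misses the threshold does not show that the sexes responded alike.

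Related microtubule genes outside the name rule were read from 6 lists of 107 genes, of which 105 were tested. In TDP-PBS, 22 rose and 41 fell, in TDP-10+12 16 and 37, and in TDP-15 22 and 37, and the median log2 fold change was -0.079, -0.053 and -0.078. These are 63, 53 and 59 genes called of 105, and the shares of all genes called were 43.5%, 40.8% and 46.9%. The lists were chosen with earlier results of these data known, so their larger shares give no support for an enrichment. In TDP-PBS, 21.9% of all genes rose and 21.6% fell, and the counts of each list below stand beside these shares. Of 16 dynein and kinesin partners, 5 rose and 5 fell in TDP-PBS. Kifap3, the adaptor subunit of kinesin-2, had a mean of 199.5 ± 9.92 CPM (SD, n = 17) in ctrl-PBS and 122 ± 10.1 (SD, n = 10) in TDP-PBS, a log2 fold change of -0.71 ± 0.044 (SE, edgeR adjusted p = 8.69e-19). Actr1a, which forms the dynactin filament, went from 219.5 ± 9.55 to 295 ± 18.3 CPM, a log2 fold change of 0.42 ± 0.032 (SE, edgeR adjusted p = 6.32e-16). Both kept apart from the ctrl-PBS range in every rNLS8 group, Kifap3 below it and Actr1a above it.

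Of 19 cargo adaptors tested, 5 rose and 8 fell in TDP-PBS, led by Rhot1 (-0.39, SE 0.040, edgeR adjusted p = 7.96e-12), which ties mitochondria to motors, and the kinesin-1 adaptor Fez1 (-0.26, SE 0.043, edgeR adjusted p = 2.13e-06). Of 25 microtubule-associated proteins, 4 rose and 12 fell, with Dclk1, a doublecortin-like kinase, lower (-0.49, SE 0.042, edgeR adjusted p = 8.14e-14) and the plus-end protein Clasp1 higher (0.42, SE 0.039, edgeR adjusted p = 4.77e-13). Among 10 stathmins and severing enzymes, 1 rose and 5 fell. Stmn2, whose human transcript is known to depend on nuclear TDP-43, had a median of 262 CPM (227 to 290.1) in ctrl-PBS and 200.1 (177 to 216) in TDP-PBS, a log2 fold change of -0.40 ± 0.042 (SE, edgeR adjusted p = 1.50e-11), and Stmn1 had -0.68 ± 0.075 (SE, edgeR adjusted p = 9.15e-11).

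Of 17 tubulin-modifying enzymes tested, 4 rose and 6 fell. Agtpbp1, which removes glutamates from tubulin tails, fell in all 3 groups with no overlap with ctrl-PBS (191 to 228 CPM in ctrl-PBS and 107 to 150.5 in TDP-PBS). Agtpbp1 had log2 fold changes of -0.66 ± 0.043, -0.63 ± 0.043 and -0.64 ± 0.040 (SE, edgeR adjusted p = 3.08e-18, 1.90e-17 and 9.41e-19). Ttll7, which adds glutamates to beta tubulin, had a log2 fold change of -0.66 ± 0.066 (SE, edgeR adjusted p = 7.07e-12). Of 18 genes for tubulin folding and nucleation, 3 rose and 5 fell. Tubg2, a gamma tubulin, fell (-0.71, SE 0.070, edgeR adjusted p = 4.95e-12), and Cct2, a subunit of the chaperonin that folds tubulin, rose (0.26, SE 0.033, edgeR adjusted p = 3.62e-09).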

How the data were processed

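The deposited table held raw counts per gene symbol for the 49 mice, made by the authors from paired-end reads of 100 bases aligned to GRCm38.p6 (mm10 in the submitters' processing notes, which name HISAT, HISAT2, Bowtie, Bowtie2 and RSEM without roles). The counting tool, its annotation and strand setting are not given in the sources used here. Mice are separate animals, and the smallest chi-square per degree of freedom between counts of any pair within a group was 7.24. Counts were filtered with filterByExpr (minimum 10), TMM-scaled and fitted over 4 groups with edgeR 4.0.16 (glmQLFit, glmQLFTest; R 4.3.3), two-sided, with Benjamini-Hochberg adjustment over 18220 genes and a threshold of 0.05, after a test on simulated data. DESeq2 1.42.0 and limma 3.58.1 were alternatives, with other scalings and filters, sex as a covariate, and fits of 2 groups only. CPM were computed from TMM-scaled library sizes and divided by exon length only to compare genes. Lengths came from GENCODE annotation of GRCm38.p6, and all 45252 symbols matched RefSeq. Named genes are, in each role, the highest member per kilobase and up to 2 called with the smallest p in TDP-PBS against ctrl-PBS, all called members with an absolute log2 fold change over 1, the 2 smallest p in each comparison between rNLS8 groups, and up to 2 genes per list. Members and lists were chosen with earlier results of these data known. Some sequences and names are not reported here.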

Additional observations from a re-analysis of the deposited data

Results flagged for a closer look

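In the groups of 10 mice, the highest or lowest mouse of 32 named genes was compared with its neighbours in 64 gene and group pairs, and 8 stood apart by Dixon's criterion (gap over range above its 95% critical value). Chance marks about 1 in 20 groups. In TDP-10+12, mouse 301 was highest in Tubb6 (9.55 CPM, next 3.34) and Kif11 (5.29 CPM, next 2.59) and lowest in Dync1i1 (41.7 CPM, next 61.6), and it was also highest in Gfap (1133 CPM), Mki67 (5.99 CPM) and Top2a (4.35 CPM). The highest TDP-10+12 mouse in Tubb4a had 1832 CPM, with the next at 1489. Among TDP-PBS mice, the highest values were 525 CPM for Tuba4a (next 448), 1934 CPM for Tubb4a (next 1598) and 4.50 CPM for Kif11 (next 3.21). The lowest Dctn6 value in TDP-PBS was 55.4 CPM, with the next at 58.6. The cause was not tested for any of these values.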

How the results depend on the processing

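Under 10 alternatives, of which leaving out the 16 mice with choroid plexus or olfactory bulb markers and leaving out TDP-10+12 mouse 301 were chosen after seeing the data, the members called numbered 32 to 39 in TDP-PBS, 23 to 33 in TDP-10+12 and 29 to 40 in TDP-15 against ctrl-PBS, and 0 in each comparison between rNLS8 groups. The count of members called higher in TDP-10+12 went from 10 to 6 without the 16 mice, and that of all genes from 3798 to 2903. Related microtubule genes called numbered 49 to 63, 40 to 55 and 51 to 59. With upper-quartile factors, 1 member (Kif5b) had every rNLS8 mouse above the ctrl-PBS range instead of 0. The share of Tuba4a in the alpha tubulins changed by -2.28 percentage points in TDP-PBS, and by -3.65 without division by length and -3.51 with coding length, and the cause was not tested. Of 1017 values of named members, 999 kept their side of the threshold, 16 lost it, 2 gained it and none of those called changed sign. Many named members were chosen for their small p, so this count does not speak for the other members. Over all members, leaving out the 16 mice lost 7 calls in TDP-PBS, 9 in TDP-10+12 and 11 in TDP-15. It gained 1 in TDP-PBS and 2 in TDP-15. With limma-voom, Tubb6 was called in TDP-PBS (log2 fold change 0.80) and no longer in TDP-10+12 (0.67). Without the filter, Klc2 (0.15) and Kif6 (-0.39) were no longer called in TDP-15. Members under 10 CPM are limited by depth. No paired analysis was possible because replicate numbers are animal numbers and no number occurs in 2 groups.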
